A study of Homo sapiens with 4 samples.

Results

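The comparison set the control library of UMUC3 cells beside the control library of SW780 cells, 2 of the 4 libraries of the series. UMUC3 and SW780 are established human bladder cancer cell lines. The study knocked down SCD1 (gene symbol SCD), the desaturase that makes monounsaturated fatty acids, with lentivirus in both lines, and 1 library of total RNA was sequenced per group. The 2 control libraries are titled shNT and carry the genotype WT; the 2 knockdown libraries are titled shSCD1. UMUC3 was grown in MEM and SW780 in DMEM, each with serum and antibiotics, so cell line and medium cannot be told apart in any value below. How many hairpins, clones or cultures stand behind a library was not given in the sources used here. Genes were joined on their Ensembl identifier: the UMUC3 table held 30148 rows, that of SW780 held 17752 rows, and the 15415 rows in both made up the comparison. The tables list different genes, and their highest Ensembl gene numbers differ, at 286271 for UMUC3 and 293600 for SW780. A difference in the gene annotation used for counting therefore cannot be told apart from the line either. Levels are CPM, read counts scaled to a common total over these 15415 shared rows, and do not account for transcript length, so they compare libraries and not genes.

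The urothelium that lines the bladder holds basal cells, which contact the basement membrane and carry TP63 and CD44, and luminal cells, which are driven by GATA3, FOXA1 and PPARG and build the uroplakin plaques of the urinary surface. Bladder cancer cell lines range from ones that keep luminal or basal epithelial programmes to ones that have lost them and carry mesenchymal genes such as VIM and ZEB1. ZEB1 and related factors bind E-box sequences and repress epithelial genes in many carcinomas.

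With 1 library per line there is no replicate error and no test of single genes: "higher" and "lower" describe these libraries. A difference is given as the log2 ratio of UMUC3 over SW780 on log2(CPM + 1), which understates the difference of weakly read genes, or as a fold of CPM with an exact Clopper-Pearson 95% interval that covers counting error only. The limit that 0 reads allow is 3 reads, which is 0.136 CPM in UMUC3 and 0.0896 CPM in SW780. A fold against 0 reads is a lower bound taken against that floor in 1 library. In bulk RNA, fewer cells that carry a gene and less of its RNA per cell cannot be told apart. Gene positions are those of GENCODE 29 on hg38. For VIM, ALDH1A3, ASNS, CD68, CYB561D2, DDIT3, F11R, GSTM1, IRF9, ITGB6, MTHFD2, NFE2L2, PLAU, PSMB8, RBM5, TCF21, TPM1 and TUSC2 at least 20% of the exonic bases lie in exons of another gene, so their reads are uncertain.

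Of the 12828 shared genes with at least 1 CPM in either control library, 1942 (15.1%) were at least 2-fold higher in UMUC3 and 3500 (27.3%) at least 2-fold higher in SW780, and 7386 lay within 2-fold. Counts of list members below are to be read beside these 2 shares. At least 16-fold apart were 172 genes higher in UMUC3 and 448 higher in SW780. There were 204 genes with 0 to 3 reads in UMUC3 and at least 10 CPM in SW780. The median log2 ratio over all genes kept was -0.24, and scaling by TMM moved it to -0.04, which changed the split to 2413 genes higher in UMUC3 and 2985 higher in SW780. Highest in UMUC3 relative to SW780 were VIM (vimentin, the mesenchymal intermediate filament), DSTN (destrin, an actin-depolymerizing protein), PSAT1 (a serine synthesis enzyme) and KCNMA1 (a potassium channel). Lowest were KRT19 (an epithelial keratin), ALDH1A3 (a retinaldehyde dehydrogenase), CTSH (a lysosomal protease) and GSTM1 (a glutathione transferase).

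**Figure D1:**
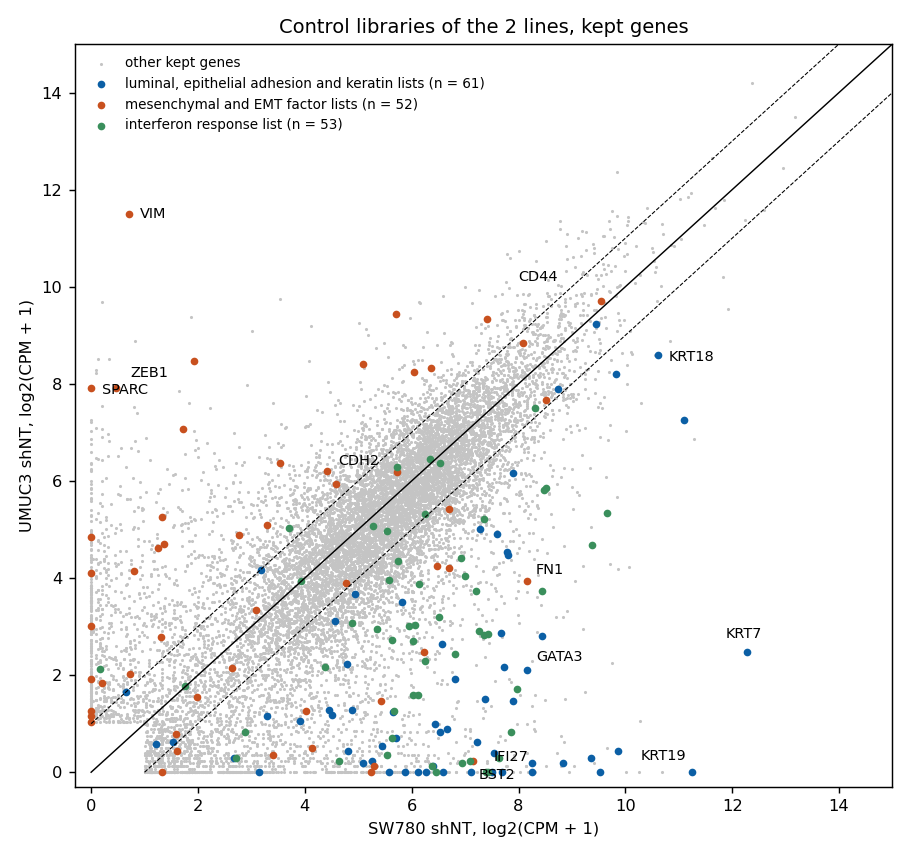
Level of each of the 12828 genes kept, as log2(CPM + 1), in the SW780 control library (x axis) and the UMUC3 control library (y axis); the solid line is equality, the dashed lines are 2-fold, and 3 groups of lists are coloured. Luminal, epithelial adhesion and keratin genes lie mostly below the lower dashed line, interferon response genes likewise, and mesenchymal genes lie on both sides.

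SCD (chr10:100347124-100364834, plus strand) was read at 273 CPM in UMUC3 and 603 CPM in SW780, 2.21-fold higher in SW780 (2.15 to 2.28). The interval covers counting error only, and the size of this gap depends on the scaling. TMM, which moves all ratios toward UMUC3, brings the gap of SCD under 2-fold. In the knockdown libraries it stood at 61.5 and 93.6 CPM, lower than in the control library of the same line. Reads over the shared rows were 97.0% of the 22818368 recovered for UMUC3 and 98.2% of the 34087871 recovered for SW780. The transcripts of the mitochondrial genome took 3.76% and 4.41% of them. The first column of each table was read as the control because the tables are named for the knockdown and give second over first.

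Most keratin and adhesion genes kept were higher in SW780, and several of them were near the floor in UMUC3. KRT19 (chr17:41523617-41528308, minus strand) had 0 reads in both UMUC3 libraries, against 2416 CPM in the SW780 control and 1644 CPM in the SW780 knockdown library, at least 17828-fold higher in the SW780 control. KRT7, a keratin of simple and transitional epithelium, stood at 4.56 CPM in UMUC3 and 4969 CPM in SW780, where it was the most read gene encoded in the nucleus after EEF1A1. KRT8 and KRT18, which pair in simple epithelia, took most of the 585 CPM that keratins had in UMUC3, against 12180 CPM in SW780. KRT8 was at 153 CPM in UMUC3 and 2202 CPM in SW780, and KRT18 was at 383 and 1568 CPM, 4.09-fold higher in SW780 (4.00 to 4.19). Of 24 keratins listed, 16 had rows in both tables and 12 were kept; 10 of the 12 were at least 2-fold higher in SW780 and 0 in UMUC3, against 27.3% and 15.1% of all genes kept. The median log2 ratio of the keratins was -2.76 over the 12 kept and -1.74 with no filter on low values.

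JUP (plakoglobin, of desmosomes and adherens junctions) had 5 reads in UMUC3 and 21917 in SW780, 0.226 against 655 CPM. SPINT2, an inhibitor of membrane serine proteases, was at 0.361 and 929 CPM. DSP (desmoplakin), at 3.48 and 211 CPM, was 60.8-fold higher in SW780 (48.6 to 77.1). Also near the floor in UMUC3 were PPL (periplakin, 0.136 against 306 CPM) and the splicing regulators ESRP1 (0 against 180 CPM) and ESRP2 (0.0903 against 83.5 CPM). The catenins, which many cell types carry, were closer: CTNNA1 was at 603 and 697 CPM and CTNNB1 at 236 and 426 CPM. Of 33 genes listed for epithelial adhesion, 22 had shared rows and all 22 were kept; 19 were at least 2-fold higher in SW780 and 0 in UMUC3, with a median log2 ratio of -4.96. Tight junction genes had a median of -2.24 over 21 kept of 28 listed, and of -0.95 with no filter on low values; 12 of the 21 were higher in SW780 and 2 in UMUC3. CLDN7 (0.181 against 138 CPM), CLDN4 (0.678 against 200 CPM) and F11R (1.81 against 358 CPM) were among the 12, whereas TJP1 was at 125 and 103 CPM and JAM3 was higher in UMUC3, at 50.9 against 3.94 CPM.

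The other 11 genes of the adhesion list had rows in the SW780 table alone as used here, and the comparison could not include them. They include the defining epithelial genes CDH1 (E-cadherin), with 494 CPM of the SW780 table, EPCAM with 76.5 and the transcription factor GRHL2 with 151. A row in 1 table alone is no measure of absence in the other line, since SERPINH1, a collagen chaperone of most adherent cells, was likewise in the SW780 table alone at 91.0 CPM.

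Luminal urothelial genes were higher in SW780 in 26 of 27 kept, from 39 listed of which 29 had shared rows, with a median log2 ratio of -5.01. Among the factors, GATA3 (chr10:8045378-8075203, plus strand) was at 3.30 CPM in UMUC3 and 285 CPM in SW780, 86.4-fold higher in SW780 (68.6 to 110), and at 1.97 and 242 CPM in the knockdown libraries. FOXA1, a pioneer factor, was at 1.85 and 165 CPM. PPARG, the fatty acid receptor, was at 6.32 and 203 CPM, and EHF, an epithelial ETS factor, had 0 reads in UMUC3 against 304 CPM. All 4 differed in the same direction by more than 16-fold. Of their known target class, FABP4, a fatty acid binding protein under PPARG control, had 3 reads in UMUC3 and 15158 in SW780. Its level in SW780 was 453 CPM in the control and 94.8 CPM in the knockdown library. The uroplakins were present in SW780 at moderate levels: UPK1B at 205 CPM, UPK1A at 37.0 and UPK2 at 32.9, with 0, 4 and 3 reads in UMUC3. KRT20, a marker of umbrella cells, was at 0.956 CPM in SW780 and had 0 reads in the UMUC3 control, so SW780 did not carry every luminal marker. The luminal factor ELF3 had a row in the SW780 table alone, at 247 CPM of that table.

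Several genes of the basal layer were also higher in SW780. TP63, a transcription factor of the basal layer, had 3 reads in UMUC3 (0.136 CPM) and stood at 169 CPM in SW780, and KRT17 had 0 reads against 735 CPM. Laminin chains that anchor basal cells to the basement membrane were higher in SW780, LAMA3 at 0.542 against 463 CPM and LAMB3 at 32.1 against 658 CPM. CDH3 (P-cadherin) was at 0.316 and 186 CPM. The basal keratin KRT5, in contrast, was at 0.181 CPM in UMUC3 and 0.418 CPM in SW780, with 4 and 14 reads, and KRT14 and KRT6A had 99 and 16 reads in the SW780 table alone. CD44, a hyaluronan receptor counted here as basal but common in mesenchymal cells, was the 1 list member at least 2-fold higher in UMUC3, at 999 against 226 CPM (4.42-fold, 4.30 to 4.53). Over 21 kept of 45 listed, 17 were higher in SW780, and the median log2 ratio was -3.15.

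The mesenchymal list was divided. VIM (chr10:17228259-17237593, plus strand) was at 2880 CPM in UMUC3 and 0.627 CPM in SW780, with 63748 and 21 reads, 4591-fold higher in UMUC3 (3003 to 7417). In the knockdown libraries it was at 2327 and 11.2 CPM. Exons of another gene cover 24.4% of the exonic bases of VIM, and its reads are uncertain to that extent because the use of strand was not given. SPARC, a secreted collagen-binding protein, was at 239 CPM in UMUC3 and had 0 reads in both SW780 libraries. ZEB1 (chr10:31318495-31529814, plus strand) was at 240 and 0.388 CPM, 618-fold higher in UMUC3 (361 to 1162), and ZEB2 was at 23.4 and 1.37 CPM. TPM2 (a tropomyosin, 355 against 2.81 CPM), NNMT (a methyltransferase, 133 against 2.30 CPM) and the receptor AXL (696 against 51.1 CPM) were on the same side. In all, 20 of 39 kept genes were higher in UMUC3 and 12 in SW780, from 43 listed, with a median log2 ratio of 1.03, which was 0.69 with no filter on low values and 0.36 with a pseudocount of 5 CPM.

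The 12 mesenchymal genes higher in SW780 include matrix genes, of which COL3A1 and LUM are also counted below among markers of other cell types. FN1 (fibronectin) was at 14.3 CPM in UMUC3 and 285 CPM in SW780, 19.9-fold higher in SW780 (17.8 to 22.3), and at 7.30 and 746 CPM in the knockdown libraries. COL3A1 (type III collagen) was at 0.181 and 141 CPM, and LUM (lumican, a matrix proteoglycan) had 0 reads against 36.5 CPM. CDH2 (N-cadherin) was at 73.2 and 20.4 CPM in the controls but at 55.2 and 58.7 CPM in the knockdown libraries. Across those knockdown libraries the median of the mesenchymal list was -0.05 over the same genes, and 14 of the 20 genes higher in UMUC3 were again at least 2-fold higher there. Among EMT transcription factors, 9 of 13 kept of 19 listed were higher in UMUC3 and 2 in SW780. The 2 were FOXC1 (17.3 against 102 CPM) and SNAI2 (Slug, 4.56 against 74.0 CPM, 16.2-fold higher in SW780, 13.29 to 19.995). TCF21, a mesodermal factor, was at 27.7 CPM in UMUC3 with 0 reads in SW780.

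**Figure D2:**
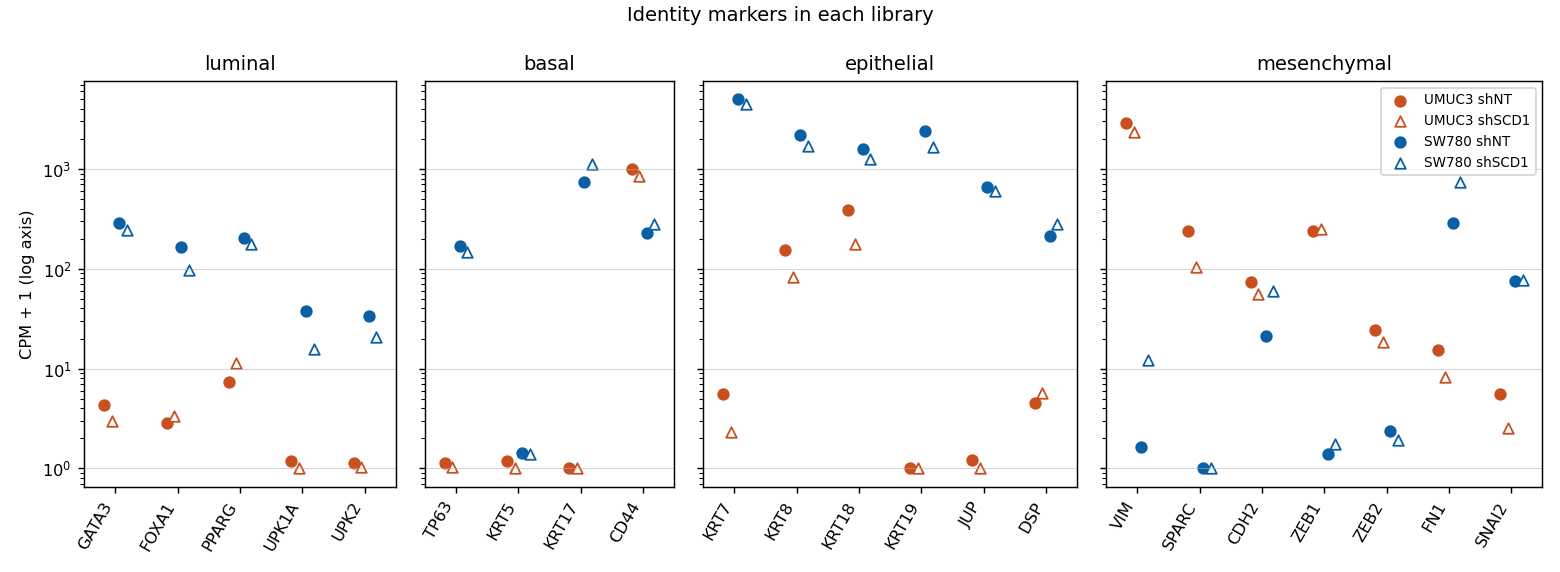
Level of luminal, basal, epithelial and mesenchymal markers in each of the 4 libraries, as CPM + 1 on a log axis; circles are control libraries, triangles knockdown libraries, and colours the lines. Both libraries of a line lie together for most markers, and FN1 and SNAI2 stand higher in SW780, against VIM, SPARC, ZEB1 and ZEB2.

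Apart from those matrix genes and CD68, the markers of other cell types named here were low. For fibroblasts, endothelium and muscle, 16 of 20 listed genes had shared rows and summed to 10.98 CPM in UMUC3 and 232 CPM in SW780, where COL3A1 and LUM made up most. Of the 11 kept, 7 were at least 2-fold higher in SW780 and 2 in UMUC3. The fibroblast receptor PDGFRA stood at 0.361 and 0.0597 CPM. Of endothelial genes, PECAM1 had 1 read in UMUC3 and 94 in SW780, and CDH5 had 0 and 33. For blood, 9 of 20 had shared rows, summing to 70.2 and 21.3 CPM, most of it CD68, a lysosomal protein of many cells, whose exons overlap another gene for 85.8% of their bases. CD14 had 0 and 9 reads. The part of other cells in the matrix genes was not tested.

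Basement membrane and matrix genes were on the whole higher in SW780, with 20 of 36 kept of 45 collagens, laminins and related proteins against 6 higher in UMUC3. Besides the laminin chains of basal cells they include LAMA5 (18.1 against 594 CPM), COL7A1, which forms anchoring fibrils (0.813 against 314 CPM), the linker NID1 (2.80 against 227 CPM) and FBLN1 (8.99 against 481 CPM). On the UMUC3 side were LAMA1 (19.8 against 0.687 CPM) and COL6A2 (33.3 against 8.78 CPM). Of the integrins, 3 that were higher in SW780 were ITGA6 at 119 against 735 CPM, ITGA2 at 49.8 against 913 CPM and ITGB6 at 0 against 296 CPM. Higher in UMUC3 were ITGA5 at 118 against 32.3 CPM and ITGB1, the shared partner of many alpha subunits, at 2240 against 611 CPM. ITGB2, a subunit of leukocytes, was at 35.7 CPM in UMUC3 and 0.209 CPM in SW780. Over 14 kept of 21 integrins, 4 were higher in UMUC3 and 7 in SW780.

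Secreted proteases and their inhibitors were split 12 to 14 over 33 kept of 50 listed. PLAU (urokinase) was at 813 CPM in UMUC3 and 140 in SW780, and its receptor PLAUR at 58.5 and 9.89. PLAT, the tissue-type activator, was at 2.12 and 607 CPM. TIMP3, a matrix-bound metalloproteinase inhibitor, had 9 reads in UMUC3 and 27100 in SW780, while ADAM12 was at 90.1 and 0.239 CPM.

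Actin genes were higher in SW780 in 26 of 51 kept of 56 listed and in UMUC3 in 8. The bundling protein LCP1 had 2 reads in UMUC3 and 14810 in SW780, and TNS4, an epithelial tensin, had 0 against 316 CPM. Moesin (MSN), which links actin to the membrane, was higher in UMUC3 at 1022 against 127 CPM, as were the tropomyosins TPM1 (976 against 152 CPM) and TPM2. Targets and factors of YAP and TEAD, which report on spreading and tension, had 16 of 34 kept of 35 listed higher in UMUC3 and 10 in SW780. CCN2 was at 585 and 16.2 CPM and CCN1 at 1623 and 219 CPM. VGLL1, a TEAD partner of luminal epithelium, had 0 reads in UMUC3 and 76.0 CPM in SW780.

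Most interferon response genes were higher in SW780. These genes are switched on when interferon receptors activate a complex of transcription factors that includes IRF9 and binds the interferon-stimulated response element upstream of its targets. Of 55 listed, 53 had shared rows and were kept; 42 were at least 2-fold higher in SW780 and 2 in UMUC3, and the median log2 ratio was -3.02. For 3 of the members whose promoters hold the element, the 250 bases before the RefSeq start are shown 5′ to 3′ on the strand of the gene (GRCh38.p14: IFI27 chr14:94110486-94110735, plus strand; BST2 chr19:17405631-17405880, minus strand; ISG15 chr1:1013247-1013496, plus strand). Capitals mark each match to GAAA, any 2 bases and GAAA again, on either strand; on the reverse strand this reads TTTC, any 2 bases and TTTC, and overlapping matches run together.
IFI27: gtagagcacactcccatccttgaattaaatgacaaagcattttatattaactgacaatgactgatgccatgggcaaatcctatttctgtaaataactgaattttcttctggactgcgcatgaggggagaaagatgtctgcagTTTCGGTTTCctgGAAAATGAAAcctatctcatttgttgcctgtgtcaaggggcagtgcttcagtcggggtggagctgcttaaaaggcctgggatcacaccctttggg
BST2: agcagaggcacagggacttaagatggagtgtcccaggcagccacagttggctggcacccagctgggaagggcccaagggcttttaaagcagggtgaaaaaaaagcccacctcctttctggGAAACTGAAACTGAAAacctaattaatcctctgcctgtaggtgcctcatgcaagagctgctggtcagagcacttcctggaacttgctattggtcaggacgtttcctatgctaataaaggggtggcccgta
ISG15: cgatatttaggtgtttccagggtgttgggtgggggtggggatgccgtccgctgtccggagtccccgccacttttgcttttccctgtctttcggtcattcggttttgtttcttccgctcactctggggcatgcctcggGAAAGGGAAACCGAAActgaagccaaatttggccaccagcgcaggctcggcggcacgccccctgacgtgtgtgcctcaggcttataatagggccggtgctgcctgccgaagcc
Such a match was found in 21 of the 41 list members with a promoter in the table and in 3.07% of all 27305 promoters of this length. Among kept genes with a promoter, the share was 3.13% for those at least 2-fold higher in SW780. It was 2.80% for those at least 2-fold higher in UMUC3 and 2.43% for all kept genes. A match is a description of the letters and not a bound site.

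IFI27, an interferon-induced membrane protein, had 0 reads in the UMUC3 control and was at 168 CPM in the SW780 control, at least 1237-fold higher. In the knockdown libraries it was at 0.159 and 431 CPM. BST2 (tetherin, which holds budding virus at the cell surface) was at 0.181 and 135 CPM, and in the knockdown libraries at 0 and 205 CPM. ISG15, the ubiquitin-like modifier, was at 2.03 and 64.5 CPM, and at 1.24 and 104 CPM in the knockdown libraries. The 3 genes stood on the same side in both pairs of libraries. The antiviral GTPase MX1 (0.768 against 233 CPM) and the RNA sensors OAS1 (2.26 against 251 CPM) and OAS2 (0.226 against 198 CPM) differed as widely. MX1 had no match to the element in the 250 bases, which says only that these letters are not in this window. The receptors did not follow: IFNAR1 was at 81.1 and 92.0 CPM and IFNGR1 at 87.0 and 79.9 CPM. IRF9 was at 1.40 and 50.1 CPM, and 48.4% of the exonic bases of IRF9 lie in exons of another gene. The 2 exceptions on the UMUC3 side include the DNA sensor CGAS, at 31.5 against 12.04 CPM. In the knockdown libraries the median over the same genes was -4.75, with the same 42 genes at least 2-fold higher in SW780.

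Antigen presentation was higher in SW780 as well, with 27 of 40 kept of 47 listed and 0 higher in UMUC3. The peptide transporter TAP1 was at 20.4 and 151 CPM, the immunoproteasome subunit PSMB8 at 13.3 and 87.1 CPM and the peptide-trimming enzyme ERAP2 at 22.7 and 291 CPM. NECTIN4, an adhesion molecule targeted by antibody drugs in bladder cancer, had 2 reads in UMUC3 and 24.0 CPM in SW780. CD274 (PD-L1) was low in both, at 3.48 and 5.26 CPM. Among cytokines and their regulators, 26 of 52 kept of 66 listed were higher in SW780 and 12 in UMUC3. TNFAIP2, an NF-kappaB target, was at 1.08 and 1235 CPM. The prostaglandin enzymes PTGS2 and PTGES had 0 reads in UMUC3 and stood at 308 and 132 CPM in SW780. UMUC3 read higher for the decoy receptor IL13RA2, at 363 against 0.269 CPM (1349-fold, 710 to 2952), for BIRC3, at 318 against 33.6 CPM, and for CCL2, at 42.0 against 0.956 CPM.

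The lines carried different growth factor receptors. FGFR1 was at 180 CPM in UMUC3 and 3.67 in SW780, 49.1-fold higher in UMUC3 (41.0 to 59.2), and its ligand FGF2 at 96.5 and 0.836 CPM. FGFR3, the receptor often mutated in luminal papillary tumours, was at 1.45 and 20.8 CPM, 14.4-fold higher in SW780 (10.1 to 21.2), and FGFR2 at 0.361 and 14.96 CPM. Receptors of the epidermal growth factor family were on the SW780 side, EGFR at 222 and 685 CPM, ERBB2 at 31.1 and 154 CPM, ERBB3 at 2.80 and 112 CPM. Their ligands AREG (0.226 and 16.9 CPM) and TGFA (4.07 and 54.4 CPM) followed, whereas the ligand HBEGF was higher in UMUC3, at 29.4 and 13.4 CPM (2.18-fold, 1.93 to 2.47). DDR1, the collagen receptor of epithelia, was at 16.4 and 240 CPM, and DDR2, its mesenchymal relative, at 16.6 and 0.747 CPM. Over 53 kept of 67 receptors and ligands, 16 were higher in UMUC3 and 26 in SW780.

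Of 48 RAS, MAPK and PI3K components, 28 lay within 2-fold, 9 were higher in UMUC3 and 11 in SW780, near the shares of all genes kept (7386 of 12828 within 2-fold, 15.1% and 27.3%). The log2 ratios of this list ran from -6.03 to 3.53, so single members lay far apart on either side. On the UMUC3 side were the AP-1 genes JUN (444 against 56.1 CPM) and FOSL1 (225 against 46.2 CPM) and the phosphatase DUSP5 (166 against 23.1 CPM). Tumour suppressors and cell cycle inhibitors were within 2-fold in 19 of 28 kept of 33 listed, with 4 higher in UMUC3 and 5 in SW780. Those were 14.3% and 17.9%, no more than the 15.1% and 27.3% of all genes kept. The log2 ratios of the suppressor list ran from -6.70 to 1.35, so the widest gap was on the SW780 side. Genes often mutated in bladder cancer divided: STAG2 was at 47.4 and 302 CPM and KDM6A at 33.7 and 93.3 CPM, but KMT2D was at 159 and 164 CPM and RB1 at 230 and 170 CPM.

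Several genes of arrest, repair and apoptosis were higher in SW780. CDKN1A (p21, an inhibitor of cyclin-dependent kinases) was at 36.1 CPM in UMUC3 and 315 CPM in SW780, 8.70-fold higher in SW780 (8.10 to 9.37). MDM2, a ubiquitin ligase, was at 113 and 327 CPM, BAX, a pore-forming protein of apoptosis, at 58.2 and 172 CPM and the nucleotide excision repair factor DDB2 at 15.4 and 128 CPM. SFN, an adaptor of the cell cycle checkpoint, had 2 reads in UMUC3 and stood at 217 CPM in SW780, but it is also a gene of stratified epithelia. SESN2 (sestrin 2, a stress-induced regulator of growth signalling) was higher in UMUC3, at 91.5 against 31.7 CPM.

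Of the D-type cyclins, CCND2 was at 74.9 CPM in UMUC3 with 0 reads in SW780, whereas CCND1 was at 360 and 849 CPM and CCND3 at 9.76 and 71.9 CPM. MYC was at 458 and 107 CPM. Genes of DNA replication were higher in SW780 in 9 of 42 and in UMUC3 in 0, and those of mitosis in UMUC3 in 8 of 39 and in SW780 in 0, against 27.3% of all genes kept higher in SW780 and 15.1% in UMUC3. Their medians were -0.47 and 0.66. FEN1, a replication nuclease, was at 41.2 and 166 CPM, and CCNB2, a mitotic cyclin, at 209 and 70.8 CPM.

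Fatty acid synthesis genes, the list that holds SCD, had 18 of 28 kept of 31 listed within 2-fold, 7 higher in SW780 and 3 in UMUC3, near the shares of all genes kept. FASN, the fatty acid synthase, was at 126 and 350 CPM, 2.77-fold higher in SW780 (2.66 to 2.89). SCD5, the second human stearoyl-CoA desaturase, was at 18.9 and 13.3 CPM. The elongases ELOVL2, ELOVL5 and ELOVL6 were the 3 on the UMUC3 side. ELOVL2, which lengthens long polyunsaturated chains, was at 80.2 CPM in UMUC3 with 0 reads in SW780. ELOVL5 was at 255 and 74.3 CPM and ELOVL6 at 99.1 and 46.8 CPM. In the knockdown libraries FASN was at 180 and 288 CPM, a log2 ratio of -0.68 against -1.46 in the controls. Cholesterol genes had 21 of 35 kept of 38 listed within 2-fold, 9 higher in SW780 and 5 in UMUC3. Those were 25.7% and 14.3%, near the 27.3% and 15.1% of all genes kept. Among the 5 was STARD4, a sterol carrier (52.0 against 12.6 CPM).

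Of the genes that bind, activate and burn fatty acids, 23 of 45 kept of 52 listed were higher in SW780 and 5 in UMUC3. The acyl-CoA synthetases ACSL5 (1.58 against 304 CPM) and ACSL4 (0 reads against 99.7 CPM) were on the SW780 side. ACSL4 loads arachidonic acid into membrane lipids and is a known determinant of ferroptosis; it had 0 reads in both UMUC3 libraries. CPT1A, which brings fatty acids into mitochondria, was higher in UMUC3, at 194 and 24.3 CPM (7.95-fold, 7.37 to 8.58), together with the thiolase ACAA2 at 106 and 16.3 CPM. Glycerolipid genes were higher in SW780 in 19 of 45 kept of 53 listed and in UMUC3 in 7. MBOAT7, an acyltransferase of phosphatidylinositol, was at 57.6 and 509 CPM, LPCAT1 at 30.2 and 192 CPM, and the acyltransferase GPAT3 was higher in UMUC3 at 31.7 against 0.836 CPM. Sphingolipid genes were split 8 to 9 over 32 kept of 35 listed. Those were 25.0% higher in UMUC3 and 28.1% in SW780, against 15.1% and 27.3% of all genes kept. Of the sphingosine phosphate receptors, S1PR1 was at 13.3 CPM in UMUC3 with 0 reads in SW780, and S1PR3 was at 1.13 and 55.5 CPM.

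Aldehyde, ketone and glutathione enzymes gave some of the widest gaps. ALDH1A3 had 0 reads in the UMUC3 control and 54955 in SW780 (1641 CPM), while its relative ALDH1A1 was at 95.4 CPM in UMUC3 with 0 reads in SW780. GSTM1 had 0 reads in both UMUC3 libraries and was at 1031 CPM in SW780. AKR1C1 was at 0.136 and 681 CPM, AKR1C3 at 0 and 489 CPM and AKR1B1 at 115 and 2496 CPM. Reads of the AKR1C and GSTM genes are uncertain because their sequences are close, and 28.6% of the exonic bases of ALDH1A3 and 38.3% of those of GSTM1 lie in exons of another gene. In the list of NRF2 targets and reductases, 24 of 44 kept of 50 listed were higher in SW780 and 6 in UMUC3. Those were 54.5% and 13.6%, against 27.3% and 15.1% of all genes kept. NRF2 itself (NFE2L2) and its target GCLM were within 2-fold, NFE2L2 at 152 and 210 CPM and GCLM at 137 and 176 CPM, and TXNRD1 was higher in UMUC3, at 1532 and 229 CPM. Xenobiotic enzymes and transporters were higher in SW780 in 13 of 20 kept of 36 listed and in UMUC3 in 0, among them EPHX1 (12.4 against 190 CPM) and the efflux pump ABCC1 (49.3 against 267 CPM). The efflux pump ABCB1 had 0 reads in UMUC3 and was at 26.2 CPM in SW780.

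Glycolysis and hypoxia genes were higher in UMUC3 in 13 of 38 kept of 40 listed and in SW780 in 9. Those were 34.2% and 23.7%, against 15.1% and 27.3% of all genes kept. LDHA was at 1842 and 472 CPM, BNIP3 at 194 and 9.53 CPM and the carbonic anhydrase CA12 at 133 and 0.149 CPM. On the SW780 side were PKM at 1167 and 3630 CPM, HIF1A at 335 and 1041 CPM and its prolyl hydroxylase EGLN3 at 0.858 and 311 CPM. In amino acid metabolism PSAT1 was at 363 CPM in UMUC3 with 3 reads in SW780. Also higher in UMUC3 were ASNS (435 against 73.0 CPM), DDIT3 (122 against 8.60 CPM), TRIB3 (108 against 20.4 CPM) and MTHFD2 (573 against 147 CPM). GLUL, which makes glutamine, was higher in SW780, at 17.1 against 934 CPM (54.7-fold, 49.4 to 60.7). This list had 11 genes higher in UMUC3 and 10 in SW780 over 43 kept of 45 listed. The base media of the lines differ, and the part of the medium in these levels cannot be told apart.

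Cancer-testis genes are silent in most adult tissue. Of 43 listed, 23 had shared rows and 14 were kept; 11 were higher in UMUC3 and 2 in SW780, with a median log2 ratio of 3.27 over those kept, of 0.82 with no filter on low values and of 2.04 without genes that overlap another. MAGEA4 had 3001 reads in UMUC3 and 2 in SW780 (136 against 0.0597 CPM), MAGEA10 had 1391 and 0, and MAGEC2 was at 90.7 and 0.418 CPM. MAGEA6 (86.6 against 0.0896 CPM) and MAGEA3 are near copies of each other, and their reads cannot be apportioned with certainty. Another 19 of the list had rows in the SW780 table alone. Neural genes were split evenly, 19 higher in each line over 49 kept of 57 listed. UCHL1 (56.5 CPM in UMUC3, 0 reads in SW780) and the microtubule protein MAP1B (194 against 2.57 CPM) stood on one side, and the axon guidance receptor PLXNA2 (1.08 against 313 CPM) on the other.

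HOXB9, a positional factor, was at 34.9 CPM in UMUC3 and 0.956 CPM in SW780, HOXA13, of the distal urogenital tract, at 0.542 and 16.8 CPM. WNT5B, a ligand of the non-canonical pathway, was at 113 and 0.269 CPM, and its relative WNT7A had 0 reads in UMUC3 against 23.5 CPM. NOTCH1 was at 16.2 and 108 CPM, its ligand JAG1 at 35.0 and 229 CPM and their target HES1 at 6.87 and 51.9 CPM. The WNT and Notch list had 23 of 47 kept of 61 listed higher in SW780 and 10 in UMUC3. The list of TGF-beta and activin genes was split 11 to 13 over 42 kept of 47 listed, with BMP6 (56.2 against 1.43 CPM) higher in UMUC3 and PMEPA1, a TGF-beta target, higher in SW780 (15.8 against 329 CPM).

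**Figure D3:**
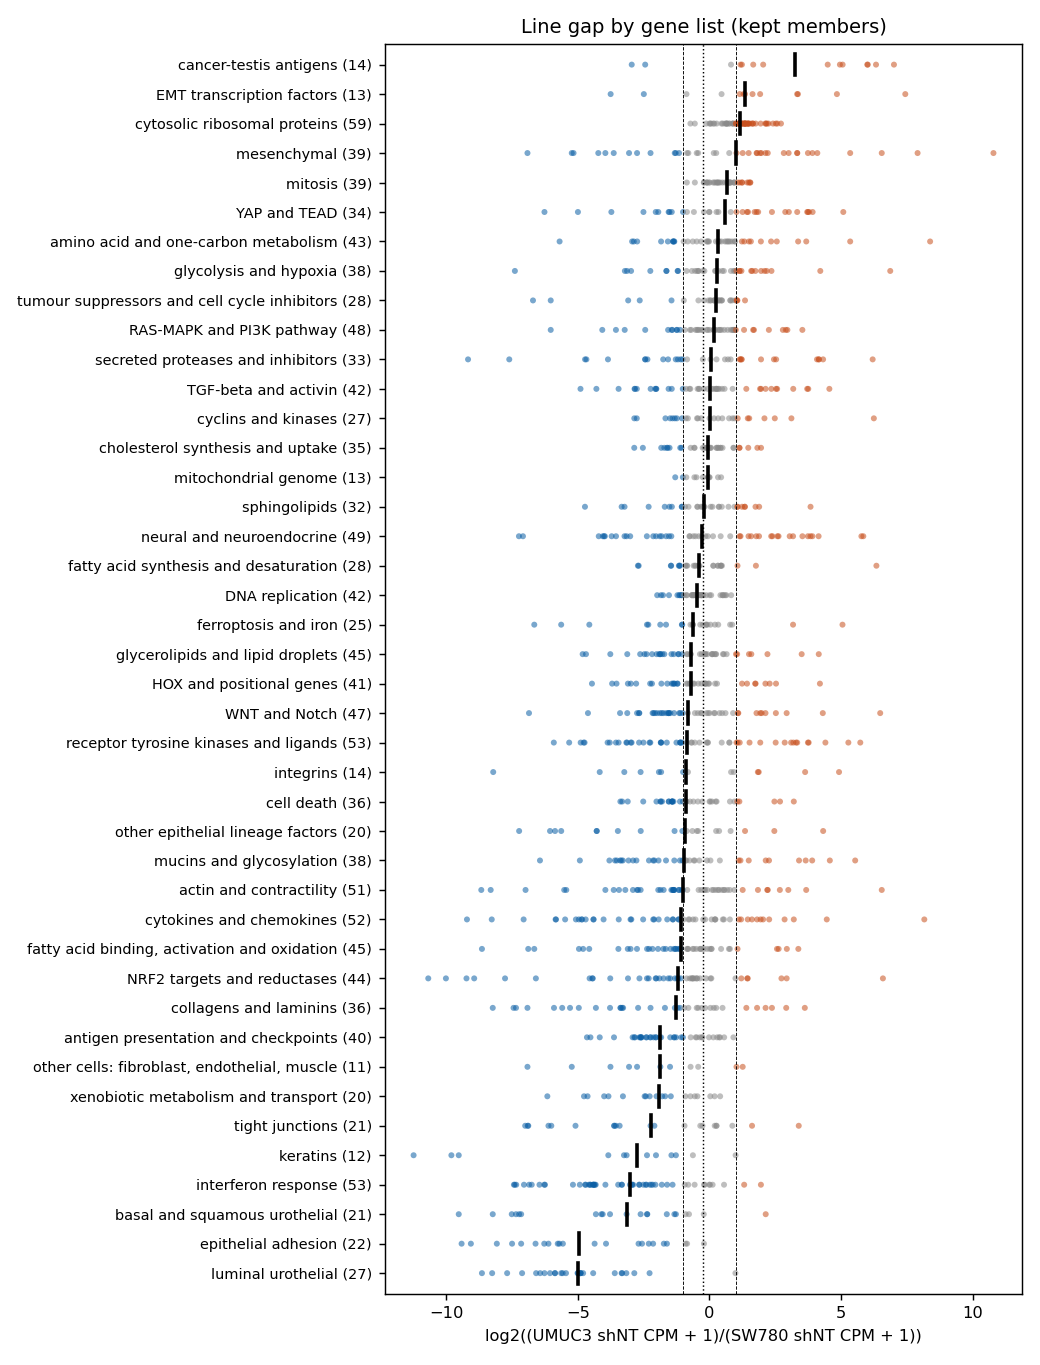
Log2 ratio of UMUC3 over SW780 control libraries on log2(CPM + 1) for each kept member of each list with at least 10 kept members, 1 list excepted (number in brackets); points past 2-fold are coloured, black bars are list medians, the dotted line is the median of all genes kept and the dashed lines are 2-fold. Luminal and epithelial adhesion genes have the lowest medians, -5.01 and -4.96; that of cancer-testis genes is 3.27 over the members kept and 0.82 with no filter on low values.

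Ribosomal protein genes were higher in UMUC3 as a group. Of 59 cytosolic ribosomal protein genes, all kept, 37 were at least 2-fold higher in UMUC3 and 0 in SW780, and together they took 65077 CPM in UMUC3 and 26689 CPM in SW780. RPL5 was at 1697 and 257 CPM and RPS6 at 2620 and 437 CPM, while RPS27 was at 141 and 233 CPM. In the knockdown libraries the sums were 59373 and 25544 CPM. A trend over base composition moved with the comparison: the median log2 ratio was 0.15 in the fifth of genes with the lowest GC content of their longest transcript and -0.73 in the fifth with the highest, and in the knockdown libraries 0.29 and -0.80. With the trend over GC content and transcript length removed, the median of the ribosomal protein list was 1.17 in place of 1.14 and that of the luminal list -5.12 in place of -5.01. The part of library preparation in this trend was not tested. Chromosome medians ranged from -0.76 on chromosome 16 to 0.27 on chromosome 10.

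One stretch of neighbouring genes had no reads in SW780. On chromosome 3, between chr3:50088908 and chr3:50649297, 14 consecutive protein-coding genes of those kept had 0 reads in the SW780 control and 11 reads in all in the SW780 knockdown library, against 10508 reads in the UMUC3 control. They were RBM5, SEMA3F, GNAI2, IFRD2, HYAL3, NAA80, HYAL2, TUSC2, RASSF1, NPRL2, CYB561D2, TMEM115, HEMK1 and MAPKAPK3, at 1.26 to 152 CPM in UMUC3. GNAI2, a G protein subunit found in most cells, had 3356 reads in UMUC3. RASSF1, NPRL2 and TUSC2 are known candidate tumour suppressors of this chromosome arm, and SEMA3F is a secreted guidance cue. The genes on either side were read in SW780: RBM6 with 183 reads, against 1523 in UMUC3, and DOCK3 with 828. DNA was not measured, so loss of the stretch and silencing of its genes cannot be told apart. No other run in SW780 held 4 or more kept genes with 0 to 3 reads each. The same search found 1 run of 4 in UMUC3, PSG5, PSG4, CD177 and LYPD3 on chromosome 19, with 7 reads in UMUC3 and 4977 in SW780. A pair of neighbours on chromosome 20, DSTN and RRBP1, also had few reads in SW780: DSTN had 5 there, against 18163 in UMUC3, and RRBP1 had 2, against 6589. BFSP1 beside them had 39, against 511.

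**Figure D4:**
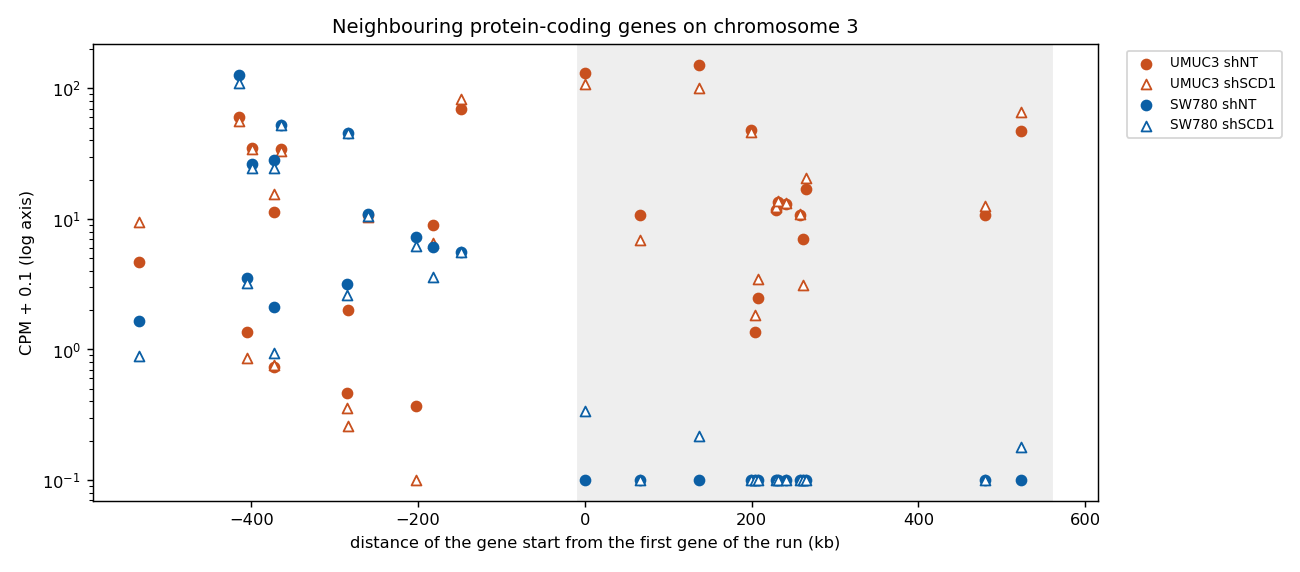
Level of protein-coding genes kept around the run on chromosome 3 in each of the 4 libraries, as CPM + 0.1 on a log axis, by the distance of the gene start from that of RBM5 in kb; shading marks the run of 14 genes. Within the shading the SW780 control lies at 0.1, which stands for 0 reads, and the UMUC3 libraries above 1; to its left both SW780 libraries have reads for every gene plotted.

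The knockdown libraries gave a separate pair of the same lines. Of the 1942 genes higher in UMUC3, 1534 (79.0%) were again at least 2-fold higher between the knockdown libraries, and of the 3500 higher in SW780, 2888 (82.5%) were. Among all 12879 genes with at least 1 CPM in either knockdown library, 2039 were at least 2-fold higher in UMUC3 and 3469 in SW780. Of the genes at least 4-fold apart in the controls, 697 of 729 and 1442 of 1480 were at least 2-fold apart on the same side between the knockdown libraries. The line gap was larger in size than the knockdown ratio of either line for 10031 genes, 78.2% of those kept, and the knockdown passed 2-fold for 557 of 11873 genes in UMUC3 and 271 of 12379 in SW780. These ratios share the control libraries with the line gap and are set side by side only.

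A few wide gaps closed between the knockdown libraries. IDH1, the cytosolic isocitrate dehydrogenase that makes NADPH, was at 22.99 CPM in UMUC3 and 326 CPM in SW780 in the controls, and at 69.3 and 69.6 CPM with the knockdown. HAS2, a hyaluronan synthase, was at 22.8 CPM and 0 reads in the controls and at 0.634 CPM and 0 reads with the knockdown. ANKRD1, a YAP target, was at 82.8 and 9.35 CPM and then at 5.23 and 11.7 CPM. For HAS2 and ANKRD1 the UMUC3 libraries differed, and for IDH1 both lines did. KIF5C, a neuronal kinesin, was at 1.17 and 33.1 CPM and then at 10.6 and 20.7 CPM. VIM came closer through SW780, where it was at 0.627 CPM in the control and 11.2 CPM with the knockdown, and still had a log2 ratio of 7.58.

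**Figure D5:**
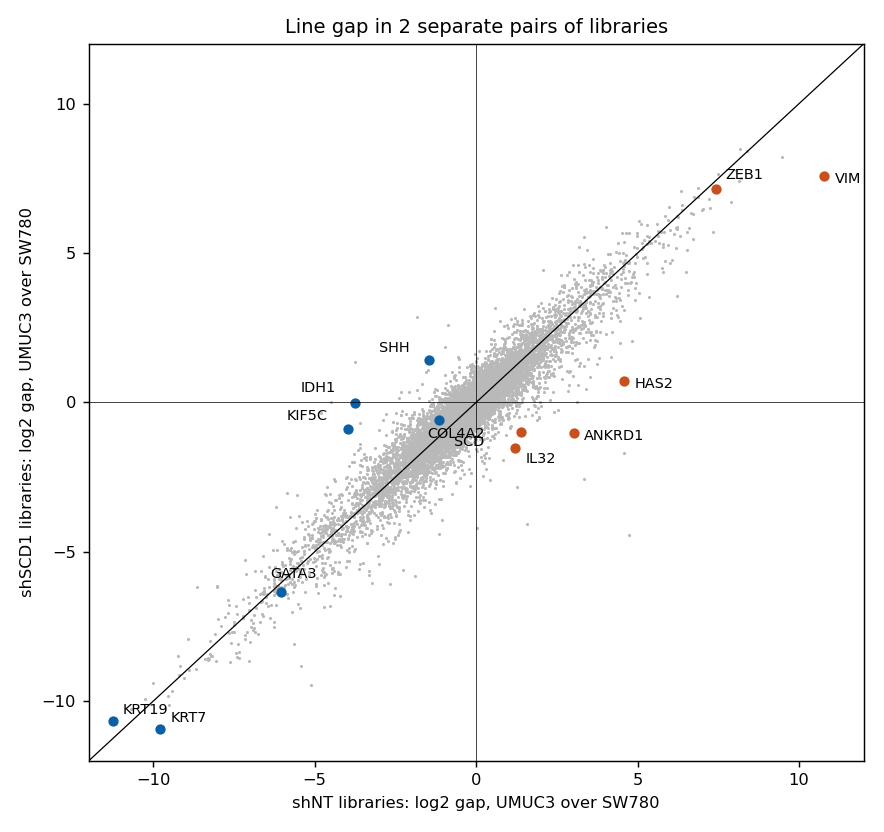
Log2 ratio of UMUC3 over SW780 on log2(CPM + 1) in the control libraries (x axis) and in the knockdown libraries (y axis) for the 12828 genes kept; the diagonal is equality and named genes are coloured by their side in the controls. KRT19, KRT7, GATA3 and ZEB1 lie near the diagonal, and ANKRD1, COL4A2, IL32 and SHH lie on opposite sides of 0 in the 2 pairs.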

How the data were processed

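RNA of 4 libraries, 1 per group, was sequenced, and each line has its own deposited table of 2 libraries. The columns are headed RPKM, but per the file headers and values the authors deposited a signal: each column sums to a fixed total with no division by gene length. The log2 ratio the authors deposited is the second column over the first; it was used only to read the column order, and its sign matched in 100% of rows at least 2-fold apart. Build hg38 stands in the submitters' processing notes; aligner, counter, annotation and use of strand were not given in the sources used here. Whole reads were recovered from the steps of the values (100% of values of up to 20 reads and at least 99.9% of all within 0.1 of a whole number), giving 22818368 reads for UMUC3 shNT and 34087871 for SW780 shNT.

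CPM over the 15415 shared rows were compared on log2(CPM + 1) for genes reaching 1 CPM in 1 or both libraries, with 2-fold as the size called; this is a rule of size and no test. The design had assumed RPKM values; the recovered reads allowed folds with exact Clopper-Pearson 95% intervals, which cover counting error only. Rows in 1 table alone were left out of all ratios, and 0 columns of other samples were present. edgeR and DESeq2 were run as alternatives over all 4 libraries, with the line and the knockdown as terms, which leaves 1 residual degree of freedom. Named genes were SCD, the 15 highest and 15 lowest ratios among genes with at least 10 CPM, members of 44 gene lists with wide gaps or a defining role, the 5 most read genes per library and the 5 gaps that closed most; HBEGF, SHH, COL4A2, IL32 and the neighbours of the runs were added after their values were seen. The members and lists were chosen with earlier results of these data known. On data simulated with counting error alone, 200 of 200 genes made 4-fold different passed 2-fold, 0 of 12339 unchanged genes did, and 96.5% of intervals held the fold. The simulation held no variation between cultures or preparations, so it checks the calculation and gives no error rate for these libraries. Tools were Python 3.11.15, numpy 2.4.6, pandas 2.3.3, scipy 1.17.1, matplotlib 3.10.9, R 4.3.3, edgeR 4.0.16 and DESeq2 1.42.0. Promoters are from RefSeq (GRCh38.p14). Some genes and 1 of the lists are not reported here.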

Additional observations from a re-analysis of the deposited data

Results flagged for a closer look

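For 4 genes the control pair and the knockdown pair lay past 2-fold on opposite sides; with 1 library per group the difference was not tested. They were chosen after their values were seen, out of 13 such genes, of which 9 have no symbol, are read-through models or share 20% or more of their exonic bases with another gene. The log2 ratio of SHH, a secreted morphogen, was -1.45 in the controls and 1.43 in the knockdown libraries. That of ANKRD1 was 3.02 and -1.02. COL4A2, a basement membrane collagen, had 1.40 and -1.002, and its level in SW780 was 44.1 CPM in the control and 179 CPM with the knockdown. IL32, a cytokine, had 1.20 and -1.54, from 21.2 and 8.66 CPM in the controls.

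Data outside the comparison held signal as well. There were 453 genes in the SW780 table alone with at least 1 CPM of that table in the SW780 control, and 1884 in the UMUC3 table alone with at least 1 CPM of that table in the UMUC3 control. All 2337 genes of the SW780 table alone took 1.79% of the reads of the SW780 control, and all 14733 of the UMUC3 table alone took 2.99% of those of the UMUC3 control. In GENCODE 29, 2159 of the 2337 are protein-coding, but only 352 of the 14733. The 2 sets thus hold different kinds of gene, and their counts do not compare the lines.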

How the results depend on the processing

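Scaling moved the balance of the comparison: genes higher in UMUC3 were 35.7% of those past 2-fold with CPM, 44.7% with TMM, 46.0% with the median of ratios (2488 and 2919 genes) and 47.5% after centring on the median (2549 and 2813 genes). With edgeR, 3636 genes were higher in UMUC3 at an adjusted p under 0.05 and 3805 in SW780, and with DESeq2 3589 and 3681; both fits hold all 4 libraries with the knockdown as a second term, and their 1 residual degree of freedom is the difference between the lines in the knockdown effect, with no replicate behind it. A 4-fold rule left 729 and 1480 genes in the control pair, and 1806 genes on the same side in both pairs, against 4422 with the 2-fold rule. Of the lists, 19 had a median of 1 or more in size, 11 with no filter on low values and 7 with the 4-fold rule. With a pseudocount of 5 CPM the medians were -3.64 for luminal, -3.57 for adhesion and -2.08 for basal genes. Between the knockdown libraries the mesenchymal median was -0.088 over the genes kept there, and the log2 ratios turned for CDH2 (-0.088), SOX9 (-0.0047), ANKRD1 (-1.02), COL4A2 (-1.002), IL32 (-1.54) and SHH (1.43). The line effect of SHH was 0.15 by edgeR and 0.12 by DESeq2. Removing the GC and length trend, an alternative chosen after seeing the data, gave 1859 and 3295 genes. The cause of these differences was not tested. No paired analysis was possible because each group has 1 library and the groups share only 1 replicate number, and leaving out a library leaves no comparison.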

Other observations

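Iron, cell death and glycan genes held further wide gaps. The membrane protein STEAP1 was at 62.0 CPM in UMUC3 and 0.896 CPM in SW780, and its relative STEAP2 at 19.4 and 1.25 CPM. PROM2, a membrane protein of epithelial protrusions, was at 8.22 and 456 CPM, and TMEM164, an acyltransferase, at 0.181 and 26.9 CPM. GPX4, the lipid peroxide reductase, was within 2-fold, at 102 and 112 CPM. The iron and ferroptosis list had 9 of 25 kept of 32 listed higher in SW780 and 2 in UMUC3. Among cell death genes, 17 of 36 kept of 39 listed were higher in SW780, with BAK1, a pore-forming effector, at 8.94 and 84.5 CPM, and 5 in UMUC3, with BCL2 at 20.9 and 8.96 CPM. Mucin and glycan genes were higher in SW780 in 19 of 38 kept of 54 listed and in UMUC3 in 10. The proteoglycan SDC1 was at 42.0 and 516 CPM, and the proteoglycan GPC6 at 52.4 and 0.149 CPM. Among lineage factors, KLF5 was at 6.01 and 346 CPM and SOX9 at 60.1 and 22.9 CPM.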
